A study of Mus musculus with 21 samples.

Results

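Interferon-stimulated genes are described here across stem and progenitor cells and myeloid cells of a mouse model of juvenile myelomonocytic leukemia (JMML), a leukemia of early childhood driven by an overactive RAS pathway. The members were a list of 35 known targets of type I interferon, drawn up with earlier results of these data in view, and they were found by symbol among 45706 gene IDs of the count table. They were sensors of foreign nucleic acid (Ddx58, Ifih1, Dhx58, Zbp1), transcription factors (Stat2, Irf9, Irf7), antiviral effectors (Ifit1, Ifit2, Ifit3, Rsad2, Mx1, Oasl1, Oasl2, Oas1a, Oas2, Oas3, Eif2ak2, Bst2, Ifitm3, Cmpk2, Samd9l), genes of ISG15 and ubiquitin modification (Isg15, Usp18, Herc6, Trim30a, Dtx3l), ADP-ribosyl transferases (Parp9, Parp14) and others (Ifi44, Rtp4, Xaf1, Ifi35, Ifi27l2a, Lgals3bp). All 35 passed the filter on low counts, which 19555 genes passed, and no member was at 0 in any library.

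Bulk RNA-seq was available for 21 libraries in 3 fractions. LSK cells were lineage-negative, Sca1+ and c-Kit+ bone marrow (BM) cells, a fraction that holds the hematopoietic stem and progenitor cells, and CD11b+ cells, which are myeloid cells, were taken from BM and from spleen with magnetic beads. S3 was the group of leukemic MxCre;Ptpn11D61Y/+ mice at the terminal stage, in which Cre removes a Neo-Stop cassette so that the blood cells carry 1 mutant Ptpn11 allele encoding an overactive SHP2 phosphatase beside 1 normal allele. The controls were MxCre mice, which carry the Cre alone, and Ptpn11D61Y/+ mice, which carry no Cre, keep the cassette and so express 1 functional Ptpn11 allele. Each fraction held 2 MxCre, 2 Ptpn11D61Y/+ and 3 S3 libraries. By the labels, S3 animals 540 and 815 gave all 3 fractions, animal 768 gave LSK cells only and animal 640 gave CD11b+ cells only. Ages are not given in the labels, and the labels do not say which control libraries share a mouse, so the p-values measure the spread between these libraries.

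The model itself touches the genes described. Cre is driven by the promoter of Mx1, which is 1 of the 35 members, and it was switched on with poly I:C, a synthetic double-stranded RNA that makes cells release interferon. The study gave poly I:C to all mice, and the S3 mice were taken months later. The interval for the controls is not given in the sources used here, so genotype and time since poly I:C cannot be told apart. Ly6a, which encodes the Sca-1 antigen used to sort LSK cells, is itself raised by interferon and was kept out of the members.

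Type I interferons are secreted proteins that bind the receptor IFNAR on nearly every cell. The receptor's kinases phosphorylate STAT proteins, among them STAT2, which joins IRF9 in the complex ISGF3, and ISGF3 binds a DNA element called the interferon-stimulated response element (ISRE) before its target genes. The products sense viral RNA, block viral growth, modify proteins with ISG15 or ADP-ribose, and feed back on the pathway. Interferon is known to push dormant hematopoietic stem cells into cycle, and its target genes are also active at a low level in unstimulated blood cells.

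The promoters of 6 members are shown because they hold matches to the core of the ISRE. RefSeq windows from 250 bases before to 50 bases after the gene start (GRCm38.p6) were at hand for 26 of the 35 members. Each line gives 60 bases, 5′ to 3′ on the strand of the gene, with every match to the ISRE core in capitals. The core searched was GAAA, any 2 bases and GAAA again, on either strand, so that it reads as TTTC, any 2 bases and TTTC where it lies on the other strand. Matches of this core can overlap one another, as in Isg15 and Oas1a.
Isg15, a ubiquitin-like protein that is joined to other proteins, chr4:156200856-156200915, minus strand: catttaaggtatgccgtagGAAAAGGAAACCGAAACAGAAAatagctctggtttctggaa
Ifit3, which binds foreign RNA with its IFIT partners, chr19:34583365-34583424, plus strand: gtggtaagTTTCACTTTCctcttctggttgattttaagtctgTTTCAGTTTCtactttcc
Rsad2, viperin, which makes a chain-terminating nucleotide, chr12:26456538-26456597, minus strand: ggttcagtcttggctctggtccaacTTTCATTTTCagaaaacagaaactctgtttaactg
Oas3, an oligoadenylate synthetase, chr5:120777700-120777759, minus strand: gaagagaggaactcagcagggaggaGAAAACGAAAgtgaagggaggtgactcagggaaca
Oas1a, another oligoadenylate synthetase, chr5:120907526-120907585, minus strand: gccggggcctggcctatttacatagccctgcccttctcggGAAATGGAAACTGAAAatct
Stat2, the subunit of ISGF3 that activates transcription, chr10:128270251-128270310, plus strand: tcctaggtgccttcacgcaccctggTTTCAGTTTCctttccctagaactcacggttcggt

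The Isg15 stretch held 3 overlapping matches, the Ifit3 stretch 2 separate ones and the Oas1a stretch 2 overlapping ones. Over the members, 13 of 26 (50.0%) held the ISRE core in the window, compared with 1079 of 27025 genes with a window (3.99%). The match lay before the start in 9 members, namely Bst2, Ifit1, Ifit3, Isg15, Oas1a, Oas3, Rsad2, Stat2 and Trim30a, and only after it in Ddx58, Eif2ak2, Ifih1 and Ifitm3. The gamma-activated sequence TTCNNNGAA was found in 6 of 26 members (23.1%) and in 9.55% of all genes with a window. A match is a run of letters and not a measured binding site.

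Total counts ran from 34992610 to 104509425 per library with a median of 69421661, and a member's level below is its log2 CPM, its count after scaling every library to the same size. The fractions carried the markers of their labels. The 12 LSK markers, such as Cd34, summed to between 1463 and 2197 CPM in LSK libraries and to at most 715 CPM in CD11b+ libraries, and Itgam, which encodes CD11b, was at least 150.7 CPM in every CD11b+ library and at most 114.2 CPM in LSK libraries. The CD11b+ fractions were mixed. Erythroid markers reached 224700 CPM in BM, and B cell markers reached 21010 CPM in the spleen of Ptpn11D61Y/+ mice, compared with 2523 and 534 CPM in spleen MxCre libraries.

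Sex-linked transcripts set some libraries apart from their labels. The female transcript Xist and the Y-linked transcript Eif2s3y were both present in the BM CD11b+ library MxCre 2 (2834 and 1472 counts), in the BM CD11b+ library of S3 animal 540 (2780 and 691) and in its spleen library (712 and 2084). The LSK library of the same animal held 1 and 3829. The control numbers do not mark 1 animal across fractions, since spleen Ptpn11D61Y/+ 1 held 4753 Xist and 0 Eif2s3y counts while LSK Ptpn11D61Y/+ 1 held 17 and 6318. Results over members were recomputed without the 3 libraries that held both transcripts, and no member was called in S3 against MxCre in BM or spleen CD11b+ cells then either, beside 5.24% and 4.77% of the genes tested. In LSK cells all 4 controls and animal 540 held Y-linked counts and at most 17 Xist counts, while animals 815 and 768, the S3 libraries whose mean over the members lay above all controls, held Xist (411.1 and 663.9 CPM) and no Eif2s3y counts. Sex and the S3 difference thus cannot be told apart in LSK cells.

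Per length, Ifitm3, a membrane protein that blocks virus entry, had the highest median of all members in each fraction, at 186.7 RPKM (CPM divided by the gene's exon length in kilobases) in LSK, 609.7 in BM and 1091 in spleen CD11b+ cells. Next in LSK cells came Lgals3bp, a secreted glycoprotein, at 68.8 RPKM and Bst2, tetherin, which holds budding virus at the cell surface, at 46.5. In BM CD11b+ cells Bst2 (263.4 RPKM), Isg15 (206.5) and the small membrane protein gene Ifi27l2a (143.1) followed. In spleen CD11b+ cells Ifi27l2a (417.7 RPKM), Bst2 (186.1) and Isg15 (100.2) followed. Ifitm3, Ifi27l2a, Ifit3, Oas1a, Oasl1, Oasl2 and Trim30a have close copies in the genome, so their counts are uncertain where reads could be shared, and so are those of members that overlap another annotated gene. Irf9, Rtp4, Parp14 and Herc6 overlap one on the same strand, and Dhx58, Irf7, Oasl1, Oas2, Eif2ak2, Usp18, Herc6, Trim30a, Dtx3l, Parp9, Rtp4 and Ifi35 overlap one on the other strand.

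The mean log2 CPM over the 35 genes spread widely among S3 mice. In LSK cells it was 4.33 and 4.65 in the MxCre libraries, 4.33 and 4.14 in Ptpn11D61Y/+, and 4.40, 4.86 and 6.03 in S3 animals 540, 815 and 768. In BM CD11b+ cells it was 4.76 and 5.03 in MxCre, 4.97 and 5.21 in Ptpn11D61Y/+, and 6.11, 6.89 and 4.39 in S3 animals 540, 815 and 640. In spleen CD11b+ cells it was 5.30 and 6.11 in MxCre, 5.44 and 5.37 in Ptpn11D61Y/+, and 6.45, 6.86 and 4.69 in S3 animals 540, 815 and 640. Animal 640 thus lay below every control in both CD11b+ fractions, while animals 540 and 815 lay above every control there. In LSK cells animal 540 was within the controls. In these bulk samples, fewer cells of a type and less RNA per cell cannot be told apart.

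**Figure D1:**
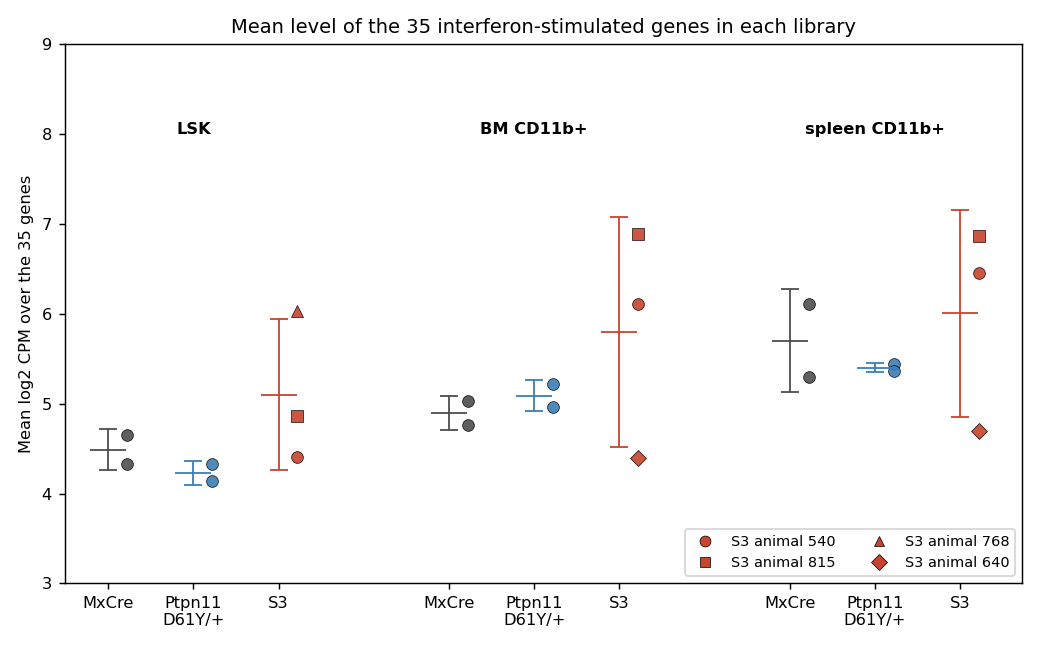
Mean log2 CPM over the 35 interferon-stimulated genes in each of the 21 libraries, in blocks by fraction and by group (x axis), with the group mean and SD as a line and bars and S3 libraries marked by animal. The S3 libraries spread from 4.40 to 6.03 in LSK, from 4.39 to 6.89 in BM and from 4.69 to 6.86 in spleen CD11b+ cells, on both sides of or beyond the controls.

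In LSK cells, S3 was compared with MxCre to ask what the activated mutation goes with in stem and progenitor cells. No member passed the test at an adjusted p under 0.05, as did 0.0307% of all genes tested. The median of the fitted differences was 0.65 log2 (all genes 0.01), and 34 of 35 were above 0. By mean log2 CPM, which gives low libraries more weight than the fit does, 33 members were higher in S3, and Ddx58, which encodes the RNA sensor RIG-I, and Rsad2 were lower. At an unadjusted p under 0.05 stood 1 member, Mx1, beside 3.97% of all genes. Without animal 768 the median difference was 0.17, and 25 members were above 0. With 1 library left out, the difference of Mx1 against MxCre ran from 0.84 to 2.44 log2.

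Mx1, a dynamin-like protein that traps virus particles and whose promoter drives the Cre, was at 2.62 and 3.09 log2 CPM in MxCre, 2.07 and 2.16 in Ptpn11D61Y/+, and 2.79, 4.28 and 5.90 in S3 animals 540, 815 and 768. Animal 540 lay between the MxCre libraries and the other S3 animals lay above all controls. The difference was 1.97 ± 0.76 (SE) log2 against MxCre (edgeR adjusted p = 1) and 2.73 ± 0.79 against Ptpn11D61Y/+ (adjusted p = 0.387).

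Irf7, the transcription factor that amplifies interferon production, was at 4.55 and 5.08 log2 CPM in MxCre, 4.19 and 4.22 in Ptpn11D61Y/+, and 4.91, 5.62 and 7.29 in animals 540, 815 and 768. Its difference against MxCre was 1.46 ± 0.77 log2 (edgeR adjusted p = 1). Oasl1, an oligoadenylate synthetase-like protein that restrains Irf7 translation, was at 2.87 and 3.40 in MxCre, 2.34 and 2.41 in Ptpn11D61Y/+, and 3.27, 3.41 and 5.32 in animals 540, 815 and 768. For both genes animal 768 stood alone at the top and animal 540 overlapped the MxCre libraries.

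Against Ptpn11D61Y/+, the fitted difference of S3 LSK cells was above 0 for all 35 members with a median of 0.80 log2 (all genes 0.04), while the mean log2 CPM was higher for 34, with Ddx58 lower. None passed the adjusted test (0.0972% of all genes did). At an unadjusted p under 0.05 stood 5 members, beside 5.74% of all genes. Without animal 768 the median was 0.24, 27 members were above 0 and 1 member stood at that p, while 9 did without animal 540. Neither fit called a member at the adjusted p, beside 0.0719% and 0.216% of the genes tested. For fits that left out 1 library, the share of all genes at an unadjusted p is not given here. Oasl1 had a difference of 1.96 ± 0.66 log2 (edgeR adjusted p = 0.565) and Irf7 of 2.09 ± 0.80 (adjusted p = 0.689). DESeq2 called 1 member, Mx1, beside 1.27% of all genes. These comparisons share the S3 libraries and are not independent.

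Between the LSK controls, 9 of 35 members had a higher estimate in Ptpn11D61Y/+ than in MxCre and the median was -0.14 log2 (all genes -0.01). The median was -0.01 with 17 members above 0 without MxCre 2, and -0.25 with 5 above 0 without Ptpn11D61Y/+ 1. None passed the adjusted test (0.0614% of all genes) or an unadjusted p under 0.05 (1.69% of all genes). Oas2, whose product makes the oligoadenylates that switch on RNase L, was at 4.42 and 5.11 log2 CPM in MxCre and 3.93 and 3.10 in Ptpn11D61Y/+, a difference of -1.23 ± 0.79. Ifi27l2a was at 2.46 and 3.02 in MxCre, 1.31 and 1.05 in Ptpn11D61Y/+, and 2.83, 4.47 and 5.38 in animals 540, 815 and 768. Both genes were lower in each Ptpn11D61Y/+ library than in each MxCre library.

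The fit over all 21 libraries shares 1 estimate of spread among the fractions, and LSK replicates were closer than CD11b+ replicates. When only the groups compared were fitted, the call changed in LSK cells. S3 against MxCre still gave 0 members (26.8% of all genes called), and S3 against Ptpn11D61Y/+ gave 1, Irf9, the DNA-binding subunit of ISGF3, at 0.51 ± 0.14 log2 and an edgeR adjusted p of 0.0426 (29.2% of all genes called). Irf9 was at 5.76 and 5.63 log2 CPM in Ptpn11D61Y/+ and 6.04, 6.19 and 6.52 in animals 540, 815 and 768, with no overlap, but at 5.87 and 6.09 in MxCre, where animal 540 fell between the libraries. Ptpn11D61Y/+ against MxCre gave 7 members, beside 14.2% of all genes. Of these, 6 were lower in Ptpn11D61Y/+, led by Ifi27l2a at -1.58 ± 0.21 (adjusted p = 0.00388) and followed by Parp14, Rsad2, Mx1, Oasl1 and Isg15, and the RNA sensor gene Ifih1 was higher at 0.41 ± 0.10 (adjusted p = 0.0326).

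Markers of other cells moved in the LSK libraries too. The 9 mature neutrophil markers summed to 1646 and 1428 CPM in MxCre, 348.4 and 302.4 in Ptpn11D61Y/+, and 581.2, 946.5 and 735.9 in S3 animals 540, 815 and 768. The 11 monocyte and macrophage markers summed to 300.7, 782.2 and 812.4 CPM in animals 540, 815 and 768, compared with 358 and 278.1 in MxCre and 229.8 and 195.2 in Ptpn11D61Y/+. Ly6a was at 50.8 and 42.5 CPM in MxCre, 60.4 and 67.4 in Ptpn11D61Y/+, and 42.5, 76.1 and 72.6 in animals 540, 815 and 768. The 9 immature granulocyte markers, led by Mpo, summed to 5089, 5058 and 6398 CPM in S3 and to between 2704 and 3619 in the controls, so that S3 was higher without overlap. The 12 LSK markers were lower in S3 without overlap, at 1667, 1557 and 1463 CPM in animals 540, 815 and 768 and from 2063 to 2197 in the controls. B cell markers, nearly all of it Ighm, summed to 10990 and 5194 CPM in MxCre, 22820 and 20750 in Ptpn11D61Y/+, and 10690, 8963 and 3298 in the same animals. NK cell markers were low, at most 12.6 CPM outside animal 768, which had 28.7. Animal 768, the highest in the members, was thus the lowest in B cell and LSK markers and the highest in immature granulocyte, monocyte and NK cell markers. Animal 540, the S3 library with the lowest members, was the lowest of the S3 libraries in monocyte markers and Ly6a. The part of these cells in the member values was not tested.

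**Figure D2:**
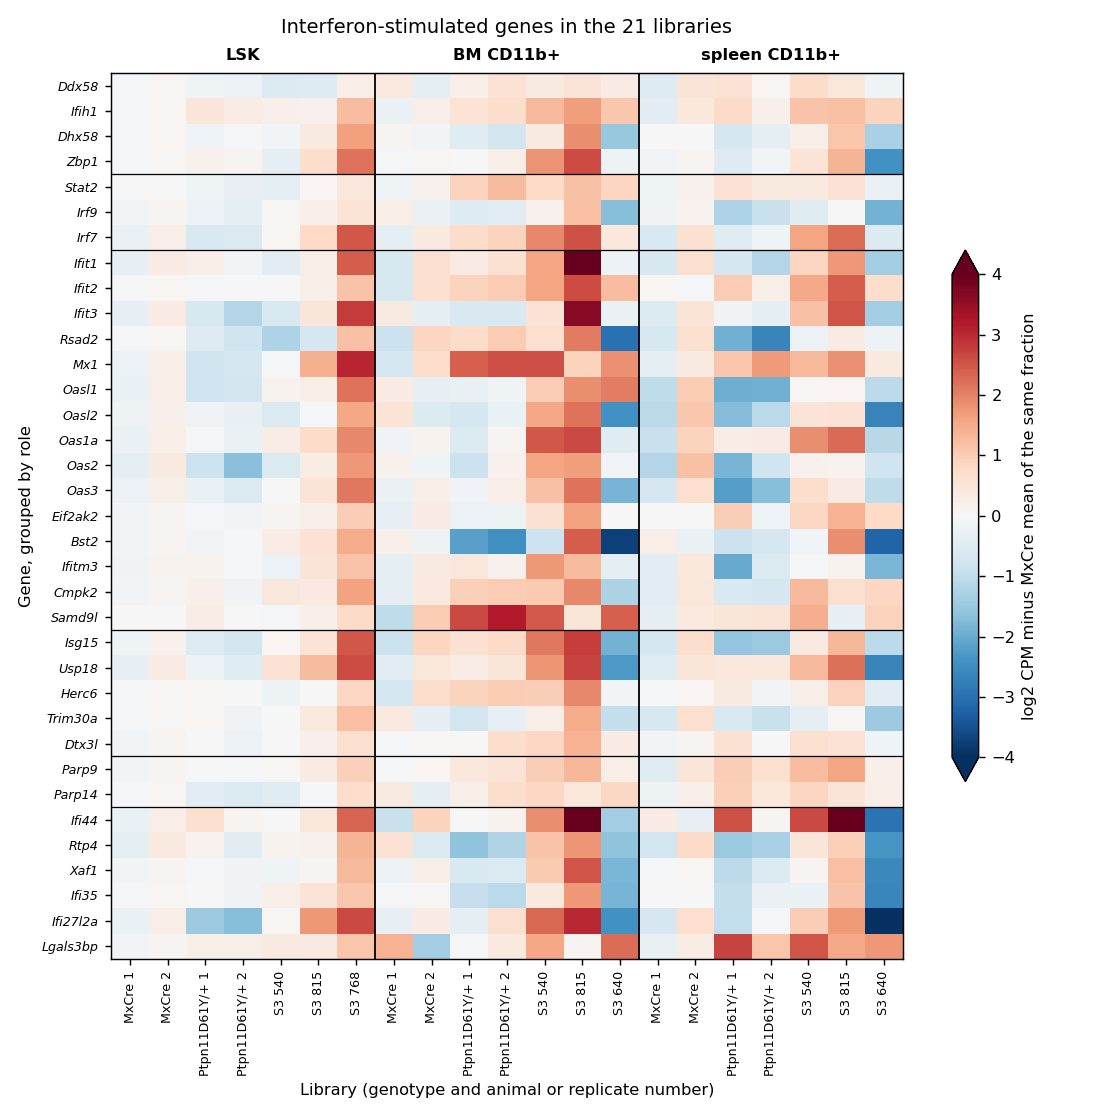
Log2 CPM of each of the 35 genes (rows, by role) in each of the 21 libraries (columns), as the difference from the mean of the MxCre libraries of the same fraction. The LSK library of animal 768 is high across the rows, the BM and spleen libraries of animal 815 are high in most rows, and both libraries of animal 640 are low in most but not all of them.

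In BM CD11b+ cells, the fitted difference of S3 against MxCre was above 0 for all 35 members, with a median of 1.20 log2 (all genes 0.18). The mean log2 CPM was higher in S3 for 32 members, with a median difference of 0.87, and was lower for Bst2, Irf9 and Rsad2, and limma-voom put 31 above 0 with a median of 0.78. No member passed the adjusted test, and neither did any other gene (0.00% of all genes). At an unadjusted p under 0.05 stood 12 members, beside 15.5% of all genes, and DESeq2 called 3, Ifih1, Ifit2 and Stat2, beside 4.93% of all genes. The fitted median was 0.73 without animal 815 and 1.48 without animal 640, and the members at an unadjusted p under 0.05 numbered 6 and 23. Neither fit called a member at the adjusted p, beside 0.507% and 0.00% of the genes tested. The BM library of animal 815, which had the highest mean over the members, also had the lowest total of all 21 libraries (34992610 counts) and 14761 genes detected, compared with 19772 and 22865 in animals 540 and 640. The part of depth in its values was not tested.

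Ifih1, which encodes the long double-stranded RNA sensor MDA5, was at 3.30 and 3.83 log2 CPM in MxCre, 4.12 and 4.25 in Ptpn11D61Y/+, and 4.85, 5.24 and 4.62 in S3 animals 540, 815 and 640. Every S3 library lay above every control, and the difference from MxCre was 1.34 ± 0.38 log2 (edgeR adjusted p = 0.191). Ifit2, another IFIT protein, was at 1.97 and 3.23 in MxCre, 3.50 and 3.61 in Ptpn11D61Y/+, and 4.16, 5.20 and 3.82 in the same animals. It showed the same order of groups without overlap, at 1.79 ± 0.56 (adjusted p = 0.215). Stat2 was at 4.41 and 4.75 in MxCre, 5.50 and 5.85 in Ptpn11D61Y/+, and 5.37, 5.75 and 5.45 in S3, so that it separated MxCre from both other groups and S3 overlapped Ptpn11D61Y/+ (0.95 ± 0.30, adjusted p = 0.217).

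Other members differed mainly between S3 animals. Oas1a was at 4.49 and 4.78 log2 CPM in MxCre, 4.09 and 4.75 in Ptpn11D61Y/+, and 7.12, 7.27 and 4.14 in animals 540, 815 and 640. Isg15 was at 5.67 and 7.39 in MxCre, 7.15 and 7.29 in Ptpn11D61Y/+, and 8.66, 9.31 and 4.64 in S3. Bst2 was at 8.92 and 8.51 in MxCre, 6.54 and 6.26 in Ptpn11D61Y/+, and 7.89, 11.14 and 4.99 in S3. In Oas1a and Isg15 animals 540 and 815 were above all controls, in Bst2 only animal 815 was, and animal 640 was the lowest S3 library in each.

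Against Ptpn11D61Y/+, the fitted difference of BM S3 cells was above 0 for 31 members, with a median of 1.14 log2 (all genes -0.03), and the mean log2 CPM was higher for 28, with a median difference of 0.84. None passed the adjusted test (0.00% of all genes), and 7 stood at an unadjusted p under 0.05, beside 8.22% of all genes. Without animal 815 the median was 0.52 and 2 members stood at that p, and without animal 640 they were 1.52 and 21. Neither fit called a member at the adjusted p, beside 0.00512% and 0.0103% of the genes tested. With 1 Ptpn11D61Y/+ library left out the median was 1.05 or 1.30. Oasl1 had the smallest p, at 4.72, 5.62 and 5.81 log2 CPM in animals 540, 815 and 640 and 3.47 and 3.57 in Ptpn11D61Y/+ (1.94 ± 0.66, edgeR adjusted p = 0.507). It was 1 of 2 members in which animal 640 was the highest S3 library.

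Between the BM controls, 20 of 35 members had a higher estimate in Ptpn11D61Y/+ with a median of 0.18 log2 (all genes 0.27). The sign of the median rested on 1 library, since it was -0.01 with 17 members above 0 without MxCre 1 and 0.37 with 2 members called (13.6% of genes tested) without MxCre 2. None passed the adjusted test (0.00% of all genes), and 3 stood at an unadjusted p under 0.05, beside 22.6% of all genes. DESeq2 called those 3, Samd9l, Stat2 and Mx1, beside 9.53% of all genes. Samd9l, a restrictor of translation and cell growth known from familial myeloid disease, was at 2.57 and 4.60 log2 CPM in MxCre, 6.24 and 6.74 in Ptpn11D61Y/+, and 6.05, 4.07 and 5.98 in S3 animals 540, 815 and 640. Ptpn11D61Y/+ was above MxCre without overlap (2.60 ± 0.70, edgeR adjusted p = 0.164), and animal 815 was the lowest S3 library, the reverse of its place in most members. Mx1 showed the same order, at 0.74 and 2.13 in MxCre, 3.82 and 4.02 in Ptpn11D61Y/+, and 4.02, 2.32 and 3.27 in S3.

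Cell markers also differed among the BM libraries. Mature neutrophil markers, led by S100a9, summed to 71560, 69730 and 13720 CPM in S3 animals 540, 815 and 640, compared with 75830 and 77610 in MxCre and 75280 and 54940 in Ptpn11D61Y/+. Animal 640 was lowest in these and in the members. Erythroid markers summed to 68900, 125800 and 14880 CPM in animals 540, 815 and 640, the order of the members among S3, and to between 50170 and 224700 in the controls. Itgam ran the other way, at 662.7, 175.8 and 947.3 CPM in these animals, compared with 234.6 and 301.8 in MxCre and 823.4 and 1024 in Ptpn11D61Y/+. Monocyte and macrophage markers summed to 3019, 2015 and 2685 CPM in animals 540, 815 and 640, lowest in the S3 animal with the highest members. In the controls they ran from 1520 to 4324 CPM. Conventional dendritic cell markers were highest in animal 640, at 414.8 CPM compared with at most 175.6 in the other BM libraries. The 9 markers of plasmacytoid dendritic cells, the blood cells that secrete the most interferon, summed to 318.4, 959.9 and 212.9 CPM in animals 540, 815 and 640, and to between 258 and 636.1 CPM in the controls. Animal 815 was highest in these and in the members. Ly6d alone gave 431.6 CPM of this sum in animal 815, 156.5 in animal 540 and 381.8 in MxCre 2. In animal 640 the largest gene was Lair1, at 85.25 CPM. A large part of the sum was thus 1 gene, and not the same gene in every library. The part of these cell types in the member values was not tested.

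In spleen CD11b+ cells, the fitted difference of S3 against MxCre was above 0 for 28 of 35 members, with a median of 0.49 log2 compared with 0.32 for all genes. The mean log2 CPM was higher in S3 for 22 members, with a median difference of 0.23, and limma-voom put 20 above 0 with a median of 0.21. No member passed the adjusted test while 4.19% of all genes did, and 5 members stood at an unadjusted p under 0.05, beside 25.3% of all genes. DESeq2 called 3, Ifih1, Ifit2 and Lgals3bp, beside 17.4% of all genes. The fitted median was -0.00 without animal 815, 0.76 without animal 640 and 1.06 without the library MxCre 2, which had the highest mean of all control libraries. At an unadjusted p under 0.05 stood 3 members without animal 815 and 8 without animal 640. Neither fit called a member at the adjusted p, beside 4.40% and 2.49% of the genes tested.

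Ifit2 was at 3.44 and 3.30 log2 CPM in MxCre, 4.38 and 3.59 in Ptpn11D61Y/+, and 4.88, 5.78 and 4.07 in S3 animals 540, 815 and 640 (1.71 ± 0.56 against MxCre, edgeR adjusted p = 0.0834). Ifih1 was at 4.21 and 5.07 in MxCre, 5.42 and 4.86 in Ptpn11D61Y/+, and 5.77, 5.83 and 5.54 in S3 (1.01 ± 0.37, adjusted p = 0.111). For both genes every S3 library was above both MxCre libraries, and Ifih1 was also above both Ptpn11D61Y/+ libraries. Ifi27l2a was at 6.97 and 8.31 in MxCre, 6.65 and 7.60 in Ptpn11D61Y/+, and 8.62, 9.36 and 3.19 in animals 540, 815 and 640, so that S3 held both the highest and the lowest library.

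Against Ptpn11D61Y/+, the fitted difference of spleen S3 cells was above 0 for 31 members, with a median of 0.85 log2 (all genes 0.07), and the mean log2 CPM was higher for 29, with a median difference of 0.37. None passed the adjusted test (0.00511% of all genes), and 5 stood at an unadjusted p under 0.05, beside 8.88% of all genes. Without animal 815 the median was 0.31 and 3 members stood at that p, and without animal 640 they were 1.37 and 10. Neither fit called a member at the adjusted p, beside 0.240% and 0.00% of the genes tested. With 1 Ptpn11D61Y/+ library left out the median was 0.85 or 1.01. Oas3 was at 4.61 and 5.13 log2 CPM in Ptpn11D61Y/+ and 7.51, 7.14 and 5.82 in animals 540, 815 and 640, a difference of 2.09 ± 0.87 (edgeR adjusted p = 0.504). The MxCre libraries were at 6.14 and 7.50 and overlapped S3. Cmpk2, a mitochondrial nucleotide kinase beside Rsad2 in the genome, was at 3.98 and 3.93 in Ptpn11D61Y/+ and 5.88, 5.22 and 5.42 in S3 (1.58 ± 0.64, adjusted p = 0.492).

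Between the spleen controls, 15 of 35 members had a higher estimate in Ptpn11D61Y/+, with a median of -0.44 log2 (all genes 0.20). The direction turned without MxCre 2, where the median was 0.24 with 18 members above 0, and with library size alone, where it was 0.23. None passed the adjusted test, which 5.11% of all genes did, and 4 stood at an unadjusted p under 0.05, beside 24.7% of all genes. Oasl1 was at 4.37 and 6.37 log2 CPM in MxCre and 3.41 and 3.45 in Ptpn11D61Y/+ (-2.26 ± 0.70, edgeR adjusted p = 0.070). With 1 library left out, its difference ran from -2.94 to -0.92. Lgals3bp ran the other way, at 5.67 and 6.27 in MxCre and 8.67 and 7.06 in Ptpn11D61Y/+ (2.08 ± 0.76, adjusted p = 0.110). DESeq2 called these 2 members, beside 17.3% of all genes.

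The spleen fractions differed in make-up. Mature neutrophil markers summed to 45450 and 104800 CPM in MxCre, 2563 and 6270 in Ptpn11D61Y/+, and 57370, 25340 and 20850 in S3 animals 540, 815 and 640, while the B cell markers ran the other way between the controls. Plasmacytoid dendritic cell markers were at 267.6 and 186.4 CPM in MxCre, 407.1 and 454.3 in Ptpn11D61Y/+, and 291.6, 476.4 and 205.8 in S3. The largest gene of this sum was Ly6d in Ptpn11D61Y/+ (179 and 283.1 CPM) and in animals 540 (102.4) and 815 (215.2). It was Lair1 in MxCre (131.5 and 98.2) and in animal 640 (139.8). Erythroid markers, led by the globin genes, summed to 14690, 16010 and 30080 CPM in animals 540, 815 and 640 and to between 1187 and 5206 in the controls, so that every S3 library lay above every control. Monocyte and macrophage markers summed to 3440, 2977 and 3142 CPM in animals 540, 815 and 640, lowest in the S3 animal with the highest members. In the controls they ran from 2816 to 3584 CPM. Conventional dendritic cell markers were highest in animal 815, at 1194 CPM compared with 425.3 to 815.1 in the other libraries, as were the members. Itgam was at 701.8, 184.7 and 1665 CPM in S3, highest in the animal with the lowest members, and ran from 150.7 to 699.6 in the controls. Their part in the member values was not tested.

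**Figure D3:**
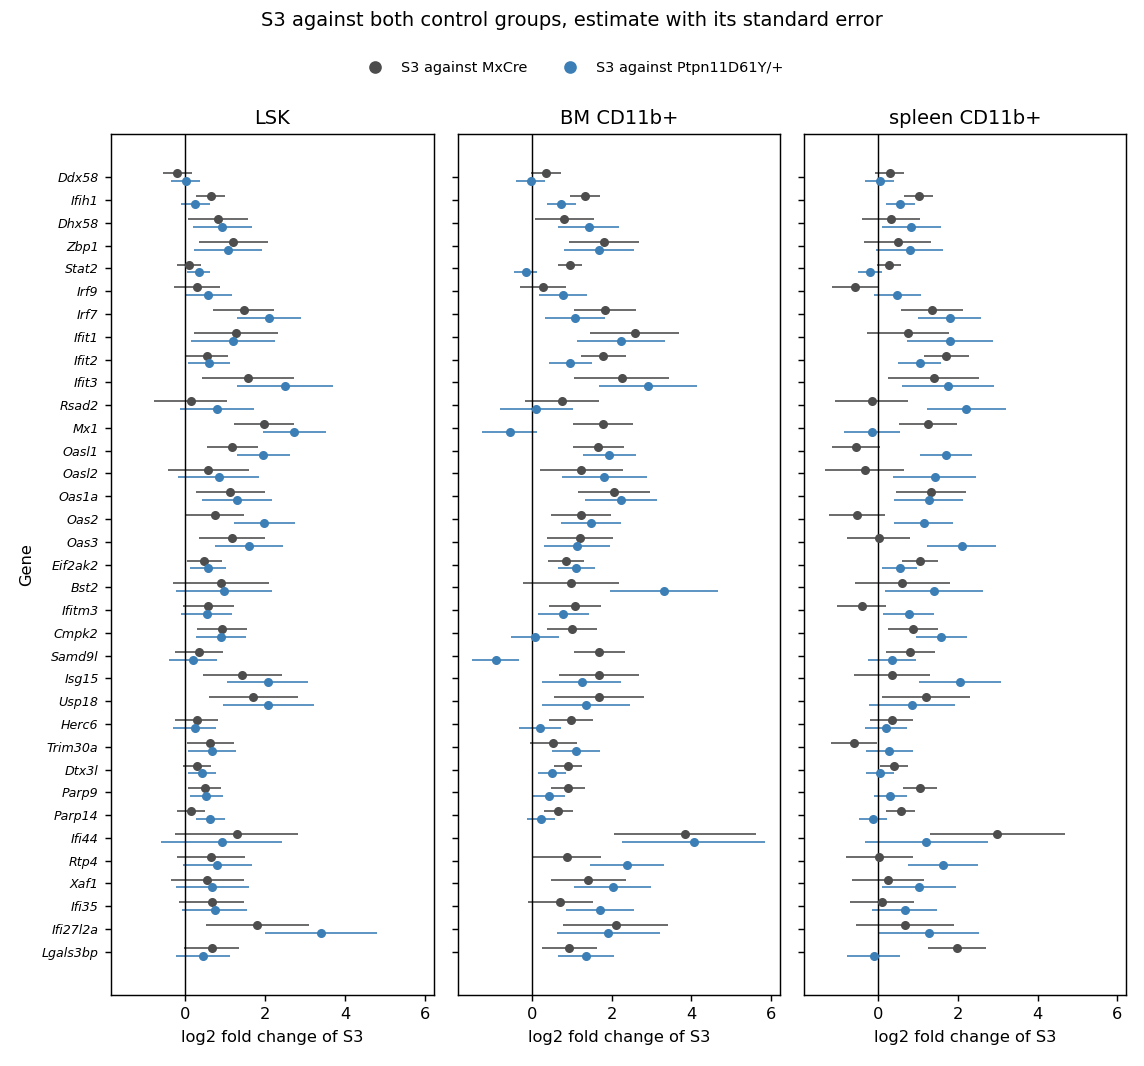
Log2 difference with its SE for each of the 35 genes, S3 against MxCre and S3 against Ptpn11D61Y/+, in the 3 fractions (edgeR, 21 libraries). Most points lie right of 0 with wide bars, 34 and 35 genes in LSK, 35 and 31 in BM and 28 and 31 in spleen CD11b+ cells, and none passed an adjusted p under 0.05.

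Groups without overlap were counted as a description. Every S3 library was above both MxCre libraries for 7 of 35 members in LSK (29.1% of all genes), 9 in BM CD11b+ (5.74%) and 7 in the spleen fraction (20.2%). Every S3 library was above all 4 controls for 6 members in LSK (22.4% of all genes), 3 in BM CD11b+ (1.78%) and 2 in the spleen fraction (3.41%). As shares these counts were below those of all genes in LSK cells and above them in BM CD11b+ cells.

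Whether the S3 minus MxCre difference itself varied between fractions was tested with interaction terms. No member passed the adjusted test for spleen CD11b+ against LSK (0.00511% of all genes), BM CD11b+ against LSK (0.00%) or spleen CD11b+ against BM CD11b+ (0.00%). At an unadjusted p under 0.05 stood 0 members (13.4% of all genes), 0 members (8.12%) and 1 member (10.7%), respectively. That member was Oasl1, whose S3 minus MxCre difference was lower by 2.22 ± 0.88 log2 in spleen than in BM (edgeR adjusted p = 0.384). Without spleen MxCre 2 it was lower by 0.90 and no member stood at that p. The median of the difference over members was -0.30 for spleen against LSK (all genes 0.31), with 13 of 35 above 0, 0.50 for BM against LSK (all genes 0.17), with 31 above 0, and -0.73 for spleen against BM (all genes 0.01), with 3 above 0. These medians rested on single libraries. That of spleen against LSK was 0.40 without LSK animal 768, 0.33 without spleen MxCre 2 and 0.05 without spleen animal 640, and it was 0.77 with the replicate block and 0.09 with library size alone. That of BM against LSK was -0.14 without BM animal 815, and that of spleen against BM was -0.09 with 15 members above 0 without the same library and -1.28 with 1 above 0 without spleen animal 815.

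The spread among S3 animals was shared by the members. In LSK cells animal 768 was the highest S3 library for 35 of 35 members and animal 540 the lowest for 33. In BM CD11b+ cells animal 815 was highest for 29 and animal 640 lowest for 29, and in spleen CD11b+ cells animal 815 was highest for 27 and animal 640 lowest for 31. The shares of all genes with these orders are not given here. The order of the CD11b+ fractions was thus alike in BM and spleen, which the labels give to the same 3 mice. The sex-linked counts of animal 540 differed between its libraries, as given above. Animal 815 had Xist and no Eif2s3y counts, and animal 640 had at most 9 Xist counts and 4661 and 4851 of Eif2s3y, so sex and animal cannot be told apart here.

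Usp18, the protease that removes ISG15 and damps the interferon receptor, and Dhx58, a regulator of the RNA sensors, show the pattern in both CD11b+ fractions. Usp18 was at 3.38 and 4.28 log2 CPM in BM MxCre, 4.13 and 4.32 in Ptpn11D61Y/+, and 5.60, 6.53 and 1.54 in S3 animals 540, 815 and 640, and in spleen it was at 4.03 and 4.98 in MxCre, 4.91 and 4.93 in Ptpn11D61Y/+, and 5.79, 6.72 and 1.85 in S3. Dhx58 was at 5.71 and 5.52 in BM MxCre, 5.13 and 4.88 in Ptpn11D61Y/+, and 5.97, 7.49 and 4.10 in S3. In both genes animals 540 and 815 were above every control of their fraction and animal 640 was below every control.

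The size of the spread set the members apart from the bulk of genes by description. The median range from the highest to the lowest S3 library was 1.38 log2 for members in LSK cells, compared with 0.216 for 8774 genes with a mean log2 CPM of at least 3. It was 2.81 compared with 1.14 in BM and 1.77 compared with 0.985 in spleen CD11b+ cells. All 35 members entered whatever their mean, while the 8774 genes had to reach that floor, so the 2 sets were filtered differently. Among MxCre libraries the medians were 0.235 and 0.0864 in LSK, 0.722 and 0.655 in BM and 0.857 and 0.486 in spleen, for members and all genes. Among Ptpn11D61Y/+ libraries they were 0.158 and 0.0947, 0.245 and 0.197, and 0.454 and 0.367. A range over 3 libraries is larger than over 2 by construction, so S3 ranges should be set beside the all-gene value of S3 and not beside the controls.

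**Figure D4:**
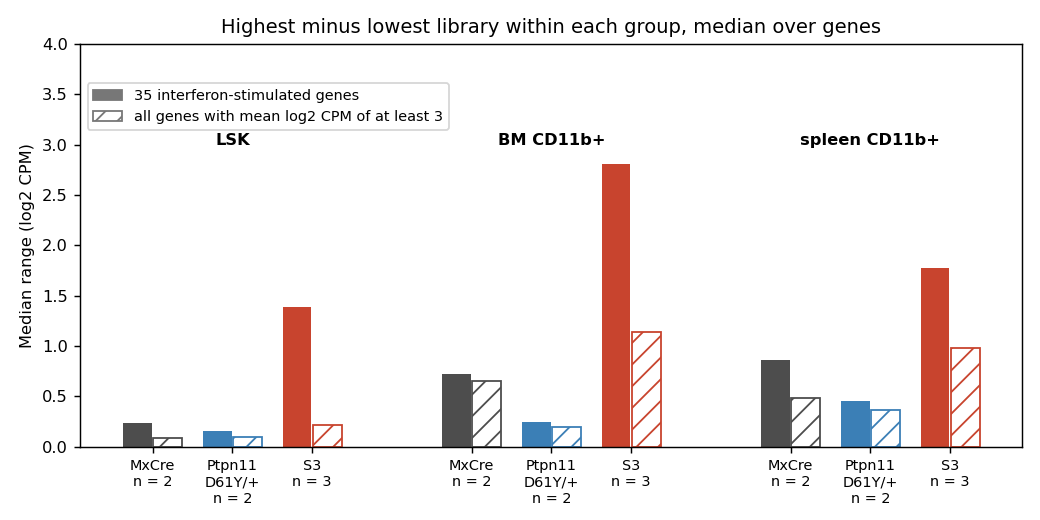
Median range from the highest to the lowest library of a group (y axis, log2) for the 35 members and for 8774 genes with a mean log2 CPM of at least 3, by fraction and group. The S3 bars of the members are at 1.38, 2.81 and 1.77 in LSK, BM CD11b+ and spleen CD11b+ cells, compared with 0.216, 1.14 and 0.985 for all genes.

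The members did not all move as 1. Taken as deviations from the group means over 21 libraries, Samd9l and Lgals3bp correlated at -0.23 each with the mean of the other members, and Parp14, Mx1 and Oasl1 correlated at 0.34, 0.45 and 0.49. Genes outside the list with a mean log2 CPM of at least 3 were ranked by the same measure. Most like the members' mean were Irgm1 (0.96), an immunity-related GTPase that interferon gamma also raises, Ddx60 (0.96), an RNA helicase, Igtp (0.93), Sp100 (0.93) and Slfn8 (0.93). The points share library depth and cell make-up, so these correlations are a description.

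The members were also compared between fractions. The share of members called was no larger than that of all genes against LSK cells, at 57.1% beside 58.4% in BM CD11b+ and 54.3% beside 59.9% in spleen CD11b+ cells, and 7 of 35 were called in spleen against BM beside 14.0% of all genes. Over genotypes, 13 members were called higher and 7 lower in BM CD11b+ than in LSK cells, beside 26.8% of all genes higher and 31.6% lower, and the median was 0.91 log2 (all genes -0.17). In spleen CD11b+ against LSK cells, 18 were called higher and 1 lower, beside 28.3% and 31.6% of all genes, with a median of 1.10 (all genes -0.14). In spleen against BM CD11b+ cells 5 were called higher and 2 lower, beside 6.56% and 7.40% of all genes, with a median of 0.56 (all genes 0.07).

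When the animal or the control's number entered the fit as a block, the calls were 20 higher and 5 lower in BM CD11b+ against LSK (24.4% and 33.1% of all genes), 25 and 2 in spleen CD11b+ against LSK (26.3% and 33.5%) and 11 and 2 in spleen against BM (6.05% and 5.57%). The direction depends on the scaling. With library size alone in place of TMM, 7 were called higher and 13 lower in BM CD11b+ against LSK (13.8% and 50.4% of all genes) with a median of -0.01 where all genes stood at -0.99, and 9 higher and 8 lower in spleen CD11b+ against LSK (16.3% and 47.9%) with a median of 0.31 where all genes stood at -0.90. Relative to all genes the members' median was thus higher in both scalings.

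The largest differences from LSK cells were those of Rsad2, Isg15 and Ifi27l2a in BM CD11b+ cells and of Ifi27l2a, Ifit3 and Isg15 in spleen CD11b+ cells. Rsad2 was at 2.77 to 5.19 log2 CPM in LSK (median 3.49), 4.93 to 9.99 in BM CD11b+ (8.63) and 4.46 to 7.75 in spleen CD11b+ cells (6.86). It was 4.77 ± 0.65 log2 higher in BM CD11b+ than in LSK (edgeR adjusted p = 2.2e-05) and 2.22 ± 0.57 lower in spleen than in BM (adjusted p = 0.0177), a call kept in 10 of 14 fits without 1 library and not made by limma-voom. Its neighbour Cmpk2 was likewise lower in spleen than in BM (-1.22 ± 0.37, adjusted p = 0.0362), a call kept in 5 of 14 such fits and not made by limma-voom either. The most and least abundant libraries of the BM and LSK fractions overlapped by a little, since animal 640 had the least Rsad2 in BM and animal 768 the most in LSK.

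Isg15 was at 2.07 to 5.28 log2 CPM in LSK (median 2.88), 4.64 to 9.31 in BM CD11b+ (7.29) and 5.37 to 8.28 in spleen CD11b+ cells (6.24), so that spleen and LSK did not overlap. It was higher than in LSK by 4.42 ± 0.66 in BM and 3.60 ± 0.63 in spleen (edgeR adjusted p = 0.000189 in spleen). Ifi27l2a was at 1.05 to 5.38 in LSK (2.83), 3.30 to 8.73 in BM (6.05) and 3.19 to 9.36 in spleen (7.60), and was 4.99 ± 0.87 higher in spleen than in LSK (adjusted p = 0.000179). Ifit3 was at 0.25 to 4.23 in LSK (1.08), 3.25 to 7.50 in BM (3.59) and 3.55 to 7.48 in spleen (4.82), and was 3.74 ± 0.73 higher in spleen than in LSK (adjusted p = 0.000474). All 3 had an LSK library of animal 768 that reached into the BM CD11b+ range. Irf7, Ifitm3, Zbp1, a sensor of unusual nucleic acid forms, Ifi35, Irf9, Oasl1 and Bst2 were also called higher in both CD11b+ fractions. Some of these calls rested on single libraries. Over the 14 fits that each left out 1 library, the BM call was kept in 6 for Irf9 and 4 for Oasl1, and the spleen call in 9 for Bst2, and limma-voom made none of these 3 calls nor that of Zbp1 in BM. With library size alone Irf9 and Oasl1 differed between BM CD11b+ and LSK cells by 0.02 and 0.13 log2. That scaling also lost the BM calls of Zbp1 (0.62) and Irf7 (0.94). In spleen it lost those of Irf9 (0.31), Oasl1 (0.66) and Bst2 (1.26).

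The 7 members called lower in BM CD11b+ than in LSK cells were Dtx3l (-1.08 ± 0.21, edgeR adjusted p = 5e-04), a ubiquitin ligase that works with Parp9, Lgals3bp (-2.04 ± 0.42, adjusted p = 0.000727), Eif2ak2, which encodes the kinase PKR that halts translation, Ifi44, Parp14, Stat2 and Ifih1. With the block the calls of Parp14 (adjusted p = 0.0677) and Stat2 (adjusted p = 0.0525) were lost, and over 14 fits that each left out 1 library Ifih1 was called in 8, Stat2 in 10 and Ifi44 in 11. Lgals3bp was at 7.27 to 8.50 log2 CPM in LSK (median 7.61), 3.47 to 7.09 in BM (5.27) and 5.67 to 8.67 in spleen (7.49), so that BM and LSK did not overlap. Eif2ak2 was at 5.16 to 6.25 in LSK (5.38), 3.86 to 5.81 in BM (4.18) and 3.56 to 5.14 in spleen (4.53). It was the member called lower in spleen than in LSK (-1.16 ± 0.27, adjusted p = 0.00159), with no overlap.

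Ifi44 had the widest range of all members within each CD11b+ fraction. It was at 3.05 to 5.64 log2 CPM in LSK (median 3.57), -1.83 to 5.11 in BM (-0.30) and -2.22 to 4.87 in spleen CD11b+ cells (1.06), and was 2.88 ± 0.96 log2 lower in BM than in LSK (edgeR adjusted p = 0.0178). Animal 640 held the lowest value and animal 815 the highest in both CD11b+ fractions. In spleen against BM the members called higher were Lgals3bp (1.71 ± 0.41, adjusted p = 0.013, called in 12 of 14 fits without 1 library), Ifih1 (0.96 ± 0.22, adjusted p = 0.00855), Parp14 (0.93 ± 0.21, adjusted p = 0.00865), Stat2 (0.80 ± 0.18, adjusted p = 0.00778) and Dtx3l (0.72 ± 0.21, adjusted p = 0.0302, called in 7 of 14). All 5 had been lower in BM CD11b+ than in LSK. Parp9 and Dtx3l share a start region on opposite strands, and the strand setting of the counts is not known.

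**Figure D5:**
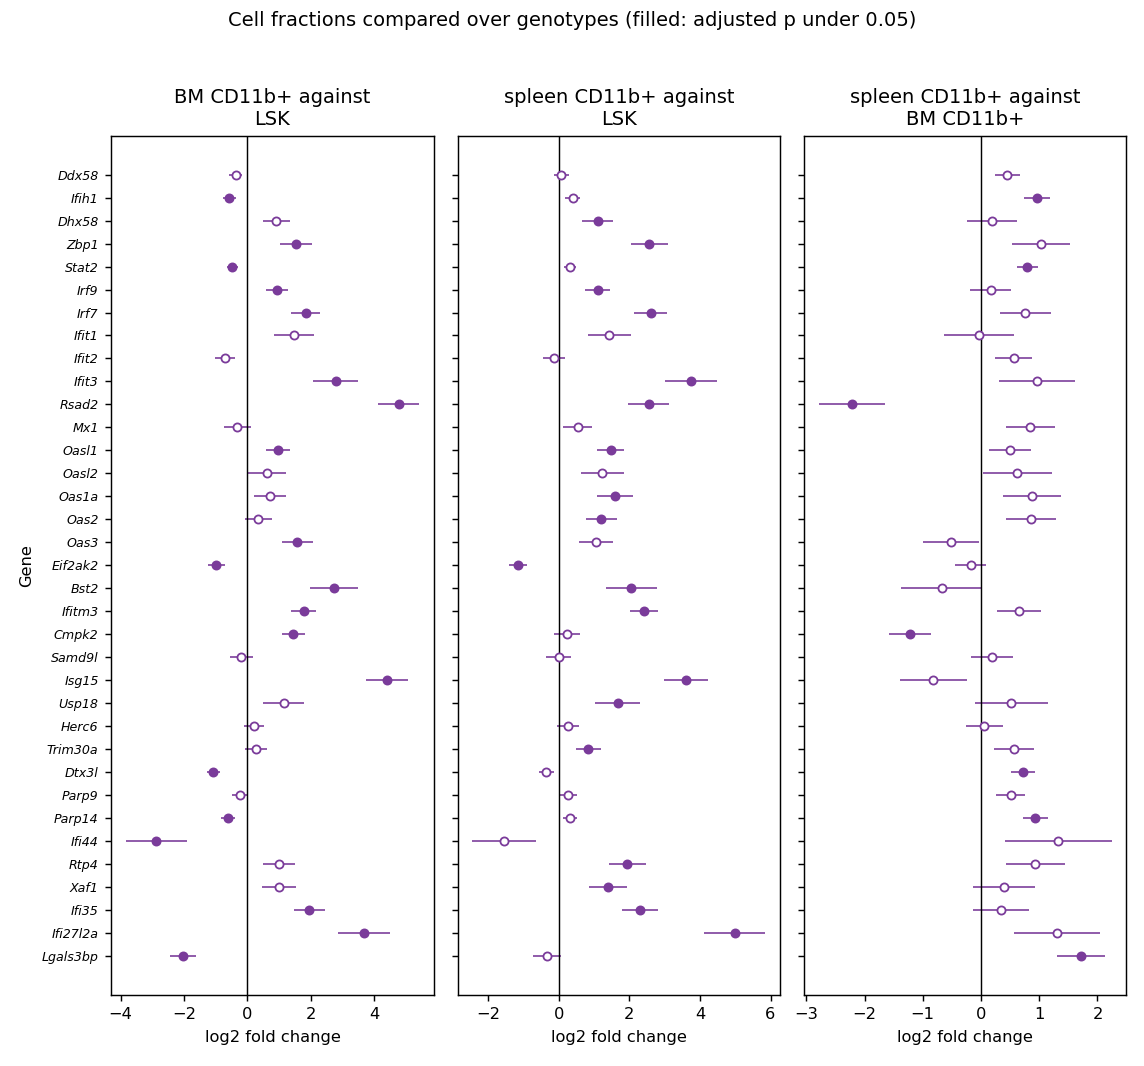
Log2 difference with its SE for each of the 35 genes in BM CD11b+ against LSK, spleen CD11b+ against LSK and spleen against BM CD11b+ cells, with filled points for an adjusted p under 0.05 (edgeR). Filled points number 13 right and 7 left of 0 in the first panel, 18 and 1 in the second, and 5 and 2 in the third.

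The interferons themselves were at or near 0. Of 20 type I and type III interferon genes, 2 passed the filter on low counts, Ifna1 with at most 13 counts and Ifnb1 with at most 38 in a library. In spleen CD11b+ cells Ifna1 had 2, 4 and 12 counts in S3 animals 540, 815 and 640 and 0 in all controls, and the largest of these was in the animal with the lowest members. Interferons act at a distance, and those made outside the sorted fraction leave no counts in it. Ifng, the type II interferon made by T and NK cells, was more abundant, with at most 881 counts, in the BM library of animal 640. Of the BM libraries, that one also had the most T and NK cell markers, at 306.6 and 73.65 CPM. The other BM libraries had at most 218.4 and 45.44 CPM, and the part of these cells was not tested. Ifng was higher in BM CD11b+ than in LSK by 5.53 ± 0.60 log2 and in spleen CD11b+ than in LSK by 4.79 ± 0.58, both called.

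All 6 interferon receptor genes were tested. None was called in S3 against either control in any fraction, where at most 4.19% of all genes were. In spleen Ptpn11D61Y/+ against MxCre the type III receptor chain Ifnlr1 was lower (-2.31 ± 0.51, edgeR adjusted p = 0.0214), 1 of 6 beside 5.11% of all genes. Between fractions 4 were called higher in BM CD11b+ and 4 in spleen CD11b+ than in LSK cells, beside 26.8% and 28.3% of all genes, and none was called lower, beside 31.6% in each.

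Among 11 JAK-STAT and IRF transducers outside the members, 2 were called in spleen S3 against MxCre, both lower, beside 4.19% of all genes called in either direction. Irf1, a transcription factor raised most by interferon gamma, was at 10.26 and 10.47 log2 CPM in MxCre, 7.53 and 8.39 in Ptpn11D61Y/+, and 7.98, 8.22 and 6.40 in S3 animals 540, 815 and 640 (-2.64 ± 0.48, edgeR adjusted p = 0.00928). Both MxCre libraries stood above all others, and Irf1 was also lower in Ptpn11D61Y/+ than in MxCre (-2.35, adjusted p = 0.028), as was Stat3 (-1.43, adjusted p = 0.029), beside 5.11% of all genes. Stat3 in S3 against MxCre was -1.24 ± 0.30 (adjusted p = 0.0321). No transducer was called in BM CD11b+ or LSK cells between genotypes, where at most 0.0972% of all genes were.

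Of 8 negative regulators 7 were tested, and of 12 other sensors and adaptors 12 were tested, and none was called between genotypes in any fraction, where at most 5.11% of all genes were. Ptpn11, the mutated gene, was at 6.79 and 6.86 log2 CPM in LSK MxCre, 6.0 and 5.92 in Ptpn11D61Y/+, and 7.26, 7.13 and 7.25 in animals 540, 815 and 768. The groups did not overlap, with the controls that keep the cassette lowest (-0.86 ± 0.58 against MxCre, edgeR adjusted p = 1).

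Of 43 other type I interferon-stimulated genes 41 were tested, and 37 had a fitted difference above 0 in S3 against MxCre in LSK cells (median 0.46 log2, all genes 0.01), 34 in BM (0.76, all genes 0.18) and 27 in spleen CD11b+ cells (0.59, all genes 0.32). None was called in the first and in the second, and in spleen Phf11d (3.49) and Pml (1.86) were called higher and Ifitm1 (-4.30), a relative of Ifitm3, was called lower, 3 of 41 beside 4.19% of all genes. In LSK cells against Ptpn11D61Y/+ 1 was called beside 0.0972% of all genes, Ifi207, a DNA-binding PYHIN protein (4.0 ± 0.53, edgeR adjusted p = 0.0171). Of 26 genes typical of interferon gamma, Tgtp2 was called in spleen S3 against MxCre (2.44, adjusted p = 0.0397, 4.19% of all genes called) and Gbp5 in spleen Ptpn11D61Y/+ against MxCre (3.12, adjusted p = 0.0265, 5.11%), and the list's medians in S3 against MxCre were 0.44, 0.77 and 0.60 in LSK, BM and spleen.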

How the data were processed

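The authors deposited raw gene counts for 21 libraries. Per the labels and the study's methods, reads were demultiplexed with bcl2fastq 2.20.0.422, checked with FastQC 0.11.9, trimmed with Trim Galore 0.6.5 and aligned to mm10 with STAR 2.5.3a. The counting program, its annotation and its strand setting are not given in the sources used here. Genes with too few counts were removed with filterByExpr (minimum count 10, minimum total 15), which left 19555 genes. Counts were scaled by TMM and tested with edgeR 4.0.16 (R 4.3.3), a robust quasi-likelihood fit over all 21 libraries with fraction and genotype as 1 group factor, at a Benjamini-Hochberg adjusted p under 0.05. Log2 CPM had a prior count of 2, and RPKM used the summed exon length of mm10 genes. The fit was tested on simulated data with a fixed spread for all genes. Those data held no differences among S3 animals such as those seen here, so no conclusion on such spread is drawn from them. DESeq2 1.42.0, limma-voom (limma 3.58.1), library size scaling, no filter, a replicate block, fits of only the groups compared and leaving out single libraries were tried as alternatives.

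The members and gene lists were chosen with earlier results of these data known, so nothing they show is independent support. Named genes were the members with the smallest p in each comparison, those with the largest differences between fractions, those at the top per length, and called genes of the other lists. Values for some members (Isg15, Bst2, Oas1a, Ifi27l2a, Usp18, Dhx58) were chosen after they were seen. Pairing was checked by correlating deviations from group means: S3 libraries of 1 animal gave 0.22, 0.66 and 0.47 between BM and spleen CD11b+ cells, 0.16 and -0.11 between LSK and BM, and 0.001 and 0.12 between LSK and spleen. S3 animals come from the labels, while control numbers gave -0.31 to 0.14 and were not taken to mark a mouse. No libraries held identical values. Promoters were RefSeq windows of GRCm38.p6.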

Additional observations from a re-analysis of the deposited data

How the results depend on the processing

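Of 562 counts and medians of members under alternatives, 519 were scored the same, but that score also covered medians that changed sign. The median of the S3 difference in BM against LSK, 0.50, was -0.14 without BM animal 815. That in spleen against LSK, -0.30, was 0.40 without LSK animal 768. None of 580 values of 17 single members followed in the genotype comparisons and their differences changed sign. These members were followed because they had the smallest p in a comparison, which favours a kept sign, so this says little about the other members. Over all 35 members, 44 of 420 estimates in these comparisons had the other sign under limma-voom and 11 under DESeq2. DESeq2 called 1 member in LSK S3 against Ptpn11D61Y/+, 3 in BM S3 against MxCre and 3 in BM Ptpn11D61Y/+ against MxCre. In spleen it called 3 in S3 against MxCre and 2 in Ptpn11D61Y/+ against MxCre. For these comparisons in the same order, limma-voom called 0 members beside 0.874%, 0.0972%, 0.0358%, 6.79% and 8.65% of all genes. Library size alone called 3 in spleen S3 against MxCre (4.69% of genes tested) and 2 in spleen Ptpn11D61Y/+ against MxCre (8.73%), with medians of 0.23 in the latter, -0.010 in BM CD11b+ against LSK and 0.31 in spleen CD11b+ against LSK. Fits of only the groups compared called 1 in LSK S3 against Ptpn11D61Y/+ and 7 in LSK Ptpn11D61Y/+ against MxCre. The replicate block, in which control libraries share only a number, called 13 in spleen against BM (11.6% of genes tested). It gave a median of 0.77 in place of -0.30 for the S3 difference in spleen against LSK. In Ptpn11D61Y/+ against MxCre, the block paired each MxCre library with the Ptpn11D61Y/+ library of the same number. It called 2 members there in LSK (9.35%) and 8 in spleen (2024 of 15628 genes). These pairs are mice of different genotypes matched by number alone, so no conclusion is drawn from these calls. The cause of these changes was not tested.

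Without the 3 libraries with the fewest genes (MxCre 1 of BM and of spleen and the BM library of animal 815), the median was -0.011 in BM Ptpn11D61Y/+ against MxCre and -0.45 in place of 0.50 for the S3 difference in BM against LSK, and 1 member was called in spleen Ptpn11D61Y/+ against MxCre (10.1% of genes tested). Of alternatives added after seeing the data, leaving out the 3 libraries with both Xist and Y-linked counts gave 1 member (11.7% of genes tested) and a median of 0.37 in BM Ptpn11D61Y/+ against MxCre and 2 members in spleen against BM (5.36%), and leaving out animal 640 gave 2 members in spleen S3 against MxCre (6.71%). Within 1 genotype, BM CD11b+ against LSK called 5 (MxCre), 6 (Ptpn11D61Y/+) and 7 (S3) members where all genotypes gave 20 (36.9%, 19.7% and 27.1% of genes tested), spleen CD11b+ against LSK 11, 3 and 8 where they gave 19 (41.6%, 18.1% and 27.4%), and spleen against BM 0, 1 and 0 where they gave 7 (0.915%, 3.69% and 0.0563%). Stat2 in BM CD11b+ against LSK reversed to 0.12 within Ptpn11D61Y/+.

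Leaving out 1 library at a time, the members called ran from 0 to 3 in BM S3 against MxCre (3 without MxCre 2, beside 9.75% of genes tested), 0 to 2 in BM Ptpn11D61Y/+ against MxCre (2 without MxCre 2, 13.6%), 0 to 1 in spleen Ptpn11D61Y/+ against MxCre (1 without MxCre 1, 2.92%), 3 to 8 in spleen against BM (3 without spleen Ptpn11D61Y/+ 1, 7.39%) and 12 to 23 in spleen CD11b+ against LSK (12 without LSK MxCre 1, 50.3%). The 8 members in spleen against BM came without spleen animal 640, where 18.3% of genes tested were called. The 23 in spleen CD11b+ against LSK came without LSK animal 768 (56.6%) and without spleen animal 640 (63.2%). The median over members ran from -0.010 to 0.37 in BM Ptpn11D61Y/+ against MxCre and from -0.60 to 0.24 in spleen Ptpn11D61Y/+ against MxCre. Calls over all genes moved too. DESeq2 called 965 genes in BM S3 against MxCre where edgeR called 0, and 3409 against 819 in spleen S3 against MxCre. In spleen Ptpn11D61Y/+ against MxCre it called 3381 against 1000. Fits of only the groups compared called 0 in spleen S3 against MxCre but 4700 against 6 in LSK S3 against MxCre. In LSK Ptpn11D61Y/+ against MxCre they called 2508 against 12.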

Other observations

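Ly6a, which encodes the Sca-1 antigen of the LSK sort and is raised by interferon in many cells, was also present in CD11b+ cells. In spleen it was at 17.2 and 8.22 CPM in MxCre, 157.9 and 125.6 in Ptpn11D61Y/+, and 145, 313.2 and 3.18 in S3 animals 540, 815 and 640. Both MxCre libraries and animal 640 were thus low, and the difference between Ptpn11D61Y/+ and MxCre was 3.48 ± 1.27 log2 (edgeR adjusted p = 0.109). In BM it was at 60.6 and 34.4 CPM in MxCre, 39.2 and 33.7 in Ptpn11D61Y/+, and 47.8, 238.2 and 22.6 in animals 540, 815 and 640. In both CD11b+ fractions animal 815 was highest and animal 640 lowest of all libraries. Among the S3 libraries alone, animal 815 was also highest and animal 640 lowest for most of the 35 genes.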
